A study of Mus musculus with 4 samples.

Results

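Among the luminal progenitor cells of the mouse mammary gland, a set with high messenger RNA for Cldn1, F3, Krt7, Tubb2b and Cgn was examined. The set holds 438 of 4382 luminal progenitors, which were themselves found among 18223 deposited cells. A cell counted as a luminal progenitor when it had at least 1000 UMIs (unique molecular identifiers, each standing for 1 captured transcript), at least 5 UMIs of Krt8, Krt18 and Krt19 together, over 3 times as many of these as of Krt5, Krt14, Krt17 and Acta2 together, at least 3 UMIs of the milk and defence genes Wfdc18, Csn3 and Ltf, and more of these than of Ly6d, Fxyd2 and Gpx3, which mark hormone-sensing luminal cells. The progenitors were ranked over all libraries by their UMIs of the 5 genes per 10000 UMIs of the cell, and the top 10% were taken. These cells are called the members below, and the remaining 3944 the other progenitors. The 5 score genes and the 13 gate genes were used to choose the cells, so their levels are described and carry no test.

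The libraries were droplet-based 3′ RNA libraries of mammary epithelial cells from FVB mice, 1 library per mouse, harvested at week 9. Every mouse, controls included, carried Tfap2c fl/fl together with Krt5-CreERT2. Tfap2c encodes the transcription factor AP-2γ, and its floxed copies can be cut out by Cre. Corn oil was given to 2 mice and 4OHT (4-hydroxytamoxifen, which activates CreERT2) to the other 2, daily from week 4. The sample characteristics give 5 days of injections, and the treatment protocol gives a longer course. CreERT2 is made from the Krt5 promoter, so it is expected in basal cells and whatever descends from them, and luminal progenitors are not its direct site of expression. The study asked how mammary stem cells fare when Tfap2c is deleted.

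Luminal progenitors line the ducts on the inner side of the basal, contractile layer, and give rise to the alveolar cells that make milk. They are known for Elf5, Kit, Cd14, Aldh1a3 and milk protein genes. Of the 5 score genes, Cldn1 encodes claudin-1, a strand protein of tight junctions, and Cgn encodes cingulin, which sits on the inner face of these junctions. F3 encodes tissue factor, the cell-surface starter of the clotting cascade, Krt7 a keratin of simple epithelia, and Tubb2b a beta-tubulin.

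The score genes lie at separate places in the genome, and the spans of the whole genes are given (GRCm38, GENCODE M21). Cldn1 (ENSMUSG00000022512) is on chromosome 16 at 26356642 to 26371841, minus strand. F3 (ENSMUSG00000028128) is on chromosome 3 at 121723537 to 121735048, plus strand. Krt7 (ENSMUSG00000023039) is on chromosome 15 at 101411043 to 101430313, plus strand. Tubb2b (ENSMUSG00000045136) is on chromosome 13 at 34126748 to 34130466, and Cgn (ENSMUSG00000068876) on chromosome 3 at 94760069 to 94786492, both on the minus strand. Tubb2b belongs to a family of close copies, and its reads may be split with them.

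F3 and Krt7 gave most of the members' score, so the 250 bases before their start sites are shown, from RefSeq on GRCm38.p6. Both strands were searched for GCCNNNGGC (the AP-2 family), GGAATG (TEAD, the partner of YAP) and TGANTCA (AP-1, the Fos and Jun family), and capitals mark every match. The RefSeq start site of Krt7 lies inside the span that GENCODE M21 gives for the gene, which begins farther upstream.
F3, chr3:121723287-121723536, plus strand: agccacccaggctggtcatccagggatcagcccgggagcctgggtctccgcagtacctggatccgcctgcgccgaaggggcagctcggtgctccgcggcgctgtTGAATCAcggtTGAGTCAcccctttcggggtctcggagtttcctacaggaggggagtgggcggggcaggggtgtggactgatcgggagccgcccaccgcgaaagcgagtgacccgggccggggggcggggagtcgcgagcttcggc
Krt7, chr15:101412153-101412402, plus strand: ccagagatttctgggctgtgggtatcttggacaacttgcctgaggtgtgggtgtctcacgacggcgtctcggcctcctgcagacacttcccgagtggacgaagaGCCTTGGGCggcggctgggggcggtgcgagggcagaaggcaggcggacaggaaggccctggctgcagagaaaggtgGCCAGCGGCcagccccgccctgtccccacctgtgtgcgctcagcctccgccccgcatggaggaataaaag
The F3 window holds 2 AP-1 matches, TGAATCA starting 146 bases and TGAGTCA starting 135 bases before the start site. The Krt7 window holds 2 AP-2 matches, GCCTTGGGC at 146 and GCCAGCGGC at 70 bases before the start site, the first of which overlaps a GC box (GGGCGG). The windows of Cldn1 and Cgn have none of these 3 motifs, and Tubb2b has no window in the table used. Of 32851 windows of this length searched, 6.75% hold the AP-1 motif, 13.7% the AP-2 motif and 12.6% the TEAD motif, so a match by itself is common.

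The libraries of corn oil replicates 1 and 2 and 4OHT replicates 1 and 2 held between 3546 and 5545 cells and between 17351950 and 22017878 UMIs. They gave 1045, 934, 1236 and 1167 luminal progenitors, in that order. The same barcode occurred in more than 1 library for 155 barcodes, 3 of them in members. Tfap2c (ENSMUSG00000028640, chromosome 2 at 172549593 to 172558622) was examined first. In cells of the basal gate it was at 389 and 285 CPM (counts scaled to 1000000 UMIs of the summed cells) with corn oil, and at 285 and 325 CPM with 4OHT. The lower control and the lower 4OHT-labelled library were thus level, and the targeted gene did not set the groups apart, so the libraries are called by their labels below. A 3′ count can still include a transcript that lost an internal exon.

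In the members, Tfap2c was at 62.5 and 45.7 CPM with corn oil, against 50.3 and 17.7 CPM with 4OHT. The last value rests on 5 UMIs. The other progenitors held 52.9, 37.6, 56.6 and 35.4 CPM, in the same order. The members and the other progenitors overlapped for Tfap2c, with a log2 fold change of 0.19 (SE 0.20) and an edgeR quasi-likelihood adjusted p of 0.576. Hormone-sensing cells had 5.12 to 14.6 CPM.

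The members had a median score of 49.6 UMIs of the 5 genes per 10000, with a range from 33.6 to 223. The other progenitors had a median of 5.83, and 16.5% of them had none of the 5 transcripts. The score ran without a gap across the limit: the last cell inside had 33.56 and the first outside 33.52. F3 gave 44.4% of the members' score UMIs and Krt7 32.4%, while Tubb2b gave 9.5%, Cldn1 7.53% and Cgn 6.10%. The members are therefore the upper range of a continuous score led by F3 and Krt7.

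4OHT replicate 1 held 229 of the 438 members, and the other libraries 64, 75 and 70. The members made up 6.12% of the luminal progenitors in corn oil replicate 1 (exact Clopper-Pearson 95% interval 4.75 to 7.75%). In corn oil replicate 2 they made up 8.03% (6.37 to 9.96%). In 4OHT replicate 1 they made up 18.5% (16.4 to 20.8%), and in 4OHT replicate 2 6.0% (4.71 to 7.52%). These intervals cover counting error only.

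1 of the 4OHT-labelled libraries was thus above both corn oil-labelled ones, and the other was below them. The group means were 7.08% ± 1.35 with corn oil and 12.3% ± 8.86 with 4OHT (SD, n = 2 each), a difference of 5.19 percentage points. The exact two-sided permutation test gave p = 1, and the smallest p that 2 against 2 libraries allow is 0.33. Without 4OHT replicate 1 the difference was -1.08 percentage points, so that library decides its direction. With every cell thinned to 2000 UMIs and ranked again, the shares were 7.36%, 9.81%, 16.8% and 5.30%, in the order above.

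**Figure D1:**
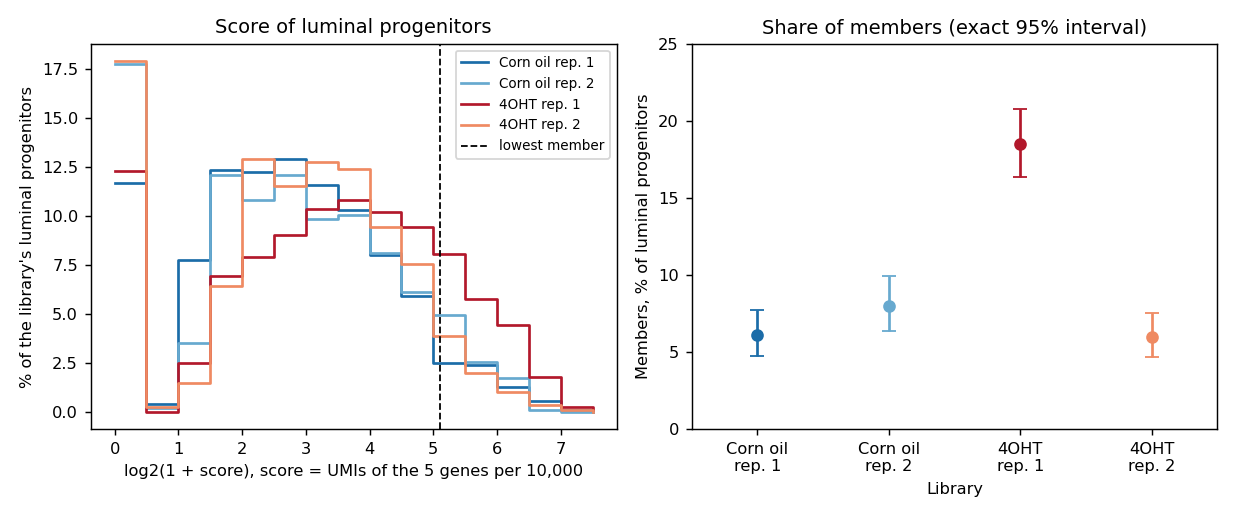
Left, the distribution of the 5-gene score over luminal progenitors, as log2(1 + UMIs of the 5 genes per 10000), in each library, with the lowest member score as a dashed line. Right, the share of luminal progenitors that are members in each library, with exact 95% intervals for counting error; 4OHT replicate 1 stands at 18.5% and the other 3 between 6.0% and 8.03%.

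The levels of the score genes were set beside those in the neighbouring classes of the gland. The members were chosen for a high sum of these genes and the other classes were not, so the rule itself favours their lead. F3 stood at 2700, 2093, 2659 and 2472 CPM in the members of corn oil replicates 1 and 2 and 4OHT replicates 1 and 2. It stood at 200 to 317 CPM in the other progenitors, 313 to 719 CPM in hormone-sensing cells and 70.8 to 112 CPM in basal cells. The other progenitors were below the hormone-sensing cells of the same library in 4 of 4, although the ranges of these classes overlapped.

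Krt7 was at 1861, 1793, 1900 and 1758 CPM in the members, the steadiest of the 5 genes. The other progenitors had 178 to 290 CPM and the hormone-sensing cells 527 to 760 CPM, with no overlap between them. Cldn1 was at 310 to 555 CPM in the members and 83.3 to 148 CPM in the other progenitors. Among the classes measured, Cldn1 was low outside the progenitors, with 3.86 to 5.88 CPM in hormone-sensing and 0.918 to 8.5 CPM in basal cells. Cells outside these gates were not measured for it. Tubb2b was highest in the members of corn oil replicate 2, at 829 CPM, against 477 to 495 CPM in the members of the other 3 libraries. Cgn ranged from 192 to 425 CPM in the members and from 122 to 172 CPM in the other progenitors, and basal cells had at most 6.57 CPM of Cgn.

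**Figure D2:**
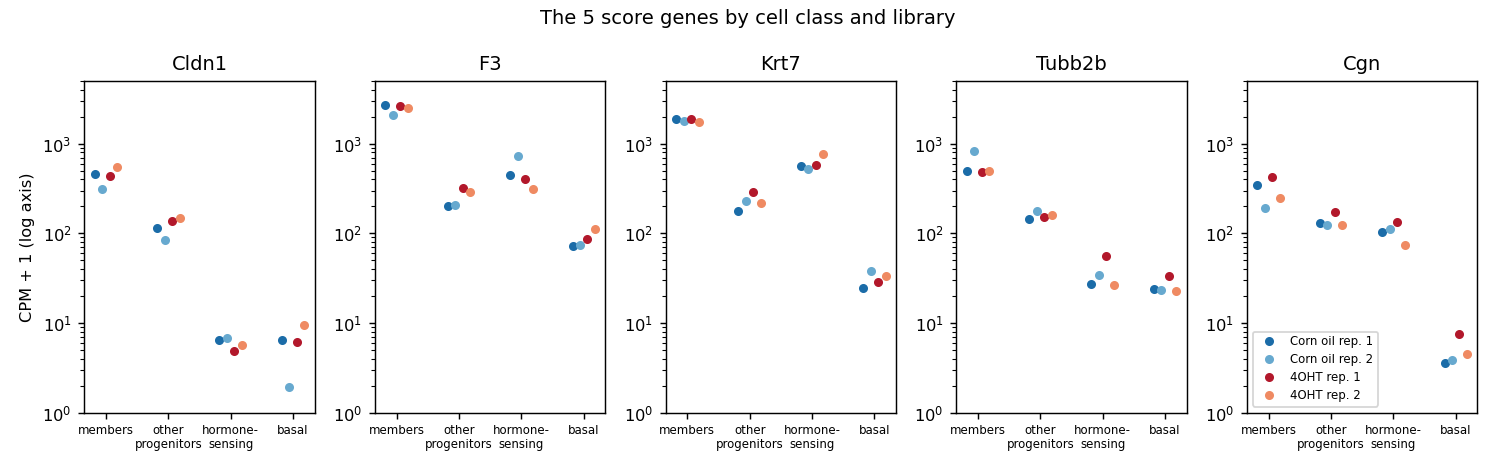
Levels of the 5 score genes in members, other luminal progenitors, hormone-sensing luminal cells and basal cells, in CPM + 1 on a log axis, 1 point per library. The points of the members lie above those of every other class for all 5 genes. The members were chosen among luminal progenitors for a high sum of these genes, which favours their gap to every other class shown. F3 and Krt7 are next highest in hormone-sensing cells, while Cldn1 is near the floor there.

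After thinning to 2000 UMIs, 87.6% of 420 members had an F3 transcript and 82.6% a Krt7 transcript, against 28.4% and 26.2% of 3746 other progenitors. Cldn1 was seen in 51.7% of members and 17.8% of other progenitors. Tubb2b was seen in 47.4% and 19.8%, and Cgn in 44.0% and 23.0%. In 186 endothelial cells, which should lack these epithelial genes and serve as a measure of free RNA, the shares ran from 0% for Tubb2b to 4.84% for F3. The thinning left out 216 progenitors under 2000 UMIs, 18 of them members.

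At this depth 34.8% of the members showed 3 of the 5 genes, 29.0% showed 4 and 7.86% all 5. The other progenitors showed 3 in 9.18%, 4 in 2.22% and all 5 in 0.320%. When the UMIs of each cell were split at random into 2 equal parts, members chosen on 1 part had median scores of 56.3, 44.6, 54.5 and 41.7 in the part not used, in the library order above. The other progenitors had 4.91, 5.27, 7.62 and 6.17. The gap in median score was thus also present in transcripts not used for the choice. Both parts hold the same 5 genes of the same cells, so the split bears on counting noise only.

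Each of the 5 genes was left out of the score in turn, and the top 10% by the other 4 were taken. The gene left out was then tested over all genes with library as a block. The 5 genes were grouped with earlier results of these data known. The p values below are therefore no independent evidence that they move together, and the levels are given as description. F3 was at 1468, 1102, 2012 and 1269 CPM in cells chosen without it and at 278, 288, 498 and 346 CPM in the remaining progenitors. It was higher in 4 of 4 libraries, with a log2 fold change of 2.28 (SE 0.13) and an edgeR quasi-likelihood adjusted p of 2.2e-15. Krt7 was at 1202 ± 215 CPM against 304 ± 101 CPM (SD, n = 4 libraries), a log2 fold change of 2.26 (SE 0.13, adjusted p = 3.1e-14). For both genes the lowest library of the chosen cells lay above the highest library of the rest.

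Cldn1, left out in the same way, was at 338 ± 87.8 CPM against 130 ± 30.6 CPM, a log2 fold change of 1.58 (SE 0.15, adjusted p = 1.1e-13). Tubb2b was at 412 ± 83.7 CPM against 174 ± 23.3 CPM, a log2 fold change of 1.42 (SE 0.13, adjusted p = 6.3e-14). Cgn had the smallest difference, 258 ± 108 CPM against 141 ± 27.9 CPM and a log2 fold change of 1.04 (SE 0.16, adjusted p = 4.0e-07). Its values were 142 against 127 CPM in corn oil replicate 2 and 381 against 183 CPM in 4OHT replicate 1, so the sets overlapped between libraries though not within one. In these fits between 10.9% and 11.3% of all genes were called higher. The cells chosen without F3 shared 71.0% with the members and those without Krt7 76.9%, against 90.9 to 93.8% for the other 3.

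**Figure D3:**
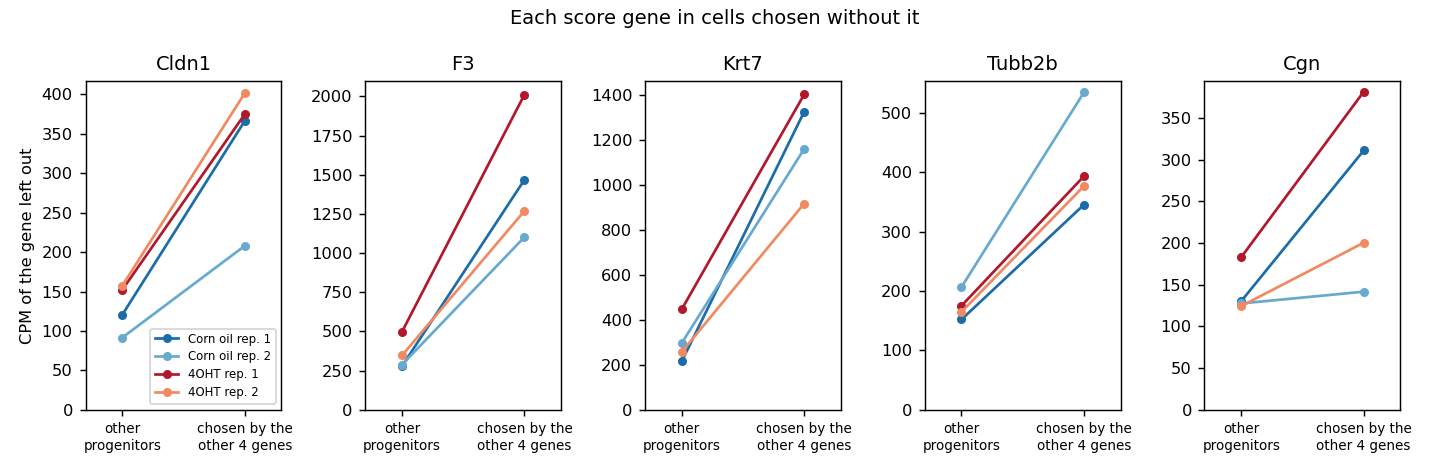
Level of each score gene, in CPM, in luminal progenitors chosen by the other 4 genes and in the remaining progenitors, 1 line per library. Every line rises from left to right for all 5 genes, with the smallest rise for Cgn in corn oil replicate 2.

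Across genes outside the rule, 8222 were tested between the members and the other progenitors of the same mice. Of these 22.1% passed at a Benjamini-Hochberg adjusted p under 0.05 in the edgeR quasi-likelihood test, 886 (10.8%) higher and 928 (11.3%) lower in the members. The median log2 fold change of all genes tested was -0.07. The shares of 10.8% and 11.3% are the background for every list count below. Without 4OHT replicate 1 the calls fell to 423 higher and 406 lower. Of the 1814 genes called with all libraries, 1778 could be fitted without that library, every one in the same direction, and 813 were called again. Choosing the members in 50% of their UMIs and measuring in the rest gave 465 higher and 559 lower, and 1584 of 1587 genes fitted there kept their direction.

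Of the luminal keratins of the gate, Krt18 and Krt8 were higher in the members of all 4 libraries and Krt19 in 3 of 4. Krt18 was at 24468, 21252, 31688 and 23845 CPM in the members and at 9235, 7458, 12307 and 11073 CPM in the other progenitors. Krt8, its partner in the filament, was at 6767 to 9843 CPM against 2750 to 5456 CPM. Krt19 was at 474, 836, 564 and 601 CPM in the members and 639, 501, 477 and 513 CPM in the other progenitors, so the sets overlapped. Krt17 was at 223 ± 54.5 CPM in the members and 80.3 ± 10.5 CPM in the other progenitors (SD, n = 4), although the gate counts it among basal genes. The milk protein gene Csn3 went the other way, at 508, 1471, 544 and 1295 CPM in the members and 4308, 3991, 3091 and 5740.4 CPM in the other progenitors. All 5 are genes of the gate and carry no test here.

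Known progenitor and alveolar genes were mostly lower in the members. Of 20 genes on this list, 18 were tested, 12 were lower and 3 higher, with a median log2 fold change of -1.0. Elf5, a transcription factor of the alveolar lineage, was at 33.9, 67.3, 55.8 and 42.4 CPM in the members and 218, 136, 173 and 181 CPM in the other progenitors. The sets did not overlap, and the log2 fold change was -1.54 (SE 0.19, adjusted p = 1.6e-08). Cd14, a receptor for bacterial lipopolysaccharide, was at 90.8 ± 35.9 CPM against 726 ± 416 CPM, a log2 fold change of -2.74 (SE 0.16). Spp1, which encodes osteopontin, was at 464 ± 382 CPM against 4049 ± 1061 CPM, and its highest member value, 1029 CPM in 4OHT replicate 2, was still below every value of the other progenitors.

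Aldh1a3, a retinaldehyde dehydrogenase used as a progenitor marker, was among the 3 that were higher. It was at 829, 601, 430 and 580 CPM in the members and 203, 174, 260 and 233 CPM in the other progenitors, with no overlap and a log2 fold change of 1.67 (SE 0.15, adjusted p = 2.3e-12). Aldh1a3 was at 27.6 CPM or less in hormone-sensing cells and at 5.19 CPM or less in basal cells. Itga2, an integrin used to sort progenitors, was also higher, at 33 ± 10.1 against 15.1 ± 3.71 CPM. Kit did not pass (9.91 against 14.9 CPM, log2 fold change -0.50, SE 0.39, adjusted p = 0.397). The level of the Notch target Hey1 was 5.29 ± 3.67 CPM against 72.5 ± 33.2 CPM, a log2 fold change of -3.61 (SE 0.33). Hey1 had only 10 UMIs in all members, so its fold change is imprecise. Mfge8, a milk fat globule protein, was at 205 ± 32.0 against 1109.9 ± 216 CPM. Ranking progenitors instead by Elf5, Plet1 and Rhov gave a top 10% that shared 15 cells (3.42%) with the members, and ranking by Cd14 and Spp1 one that shared 2 (0.457%). Rankings unrelated to each other would share about 10% of the members.

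Genes for milk proteins and milk fat were lower as well, 8 of 16 tested against 1 higher. Lalba, the alpha-lactalbumin of milk sugar synthesis, was at 10.4, 12, 3.14 and 17.7 CPM in the members and 117, 103, 109 and 244 CPM in the other progenitors. The log2 fold change was -3.75 (SE 0.27, adjusted p = 2.2e-15). Csn2 (beta-casein) was listed at 0, 399, 1.57 and 0 CPM in the members, so its mean rests on corn oil replicate 2. Cidea, a lipid droplet protein, was the gene that was higher, at 53.8 ± 40.8 against 18.1 ± 9.44 CPM. Igfbp5, a secreted binding protein of insulin-like growth factors, showed the most significant fall of all named genes, from 937, 473, 926 and 411 CPM in the other progenitors to between 16.8 and 43.2 CPM in the members (log2 fold change -4.17, SE 0.19, adjusted p = 7.4e-22). Igfbp5 was still lower in hormone-sensing cells, at 11.6 to 15.4 CPM.

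The 15 genes with the largest increase, among those that passed, averaged 20 CPM or more and were higher in 4 of 4 libraries, included actin-binding proteins, connexins, annexins and secreted factors. Cald1 (caldesmon, an actin-binding protein) was at 948, 769, 1169 and 704 CPM in the members and 93.0, 179, 261 and 148 CPM in the other progenitors, a log2 fold change of 2.67 (SE 0.16, adjusted p = 9.0e-18). Tpm2 (tropomyosin) had a log2 fold change of 2.37 and Actn1 (alpha-actinin, a crosslinker of actin) 2.23. The gap junction proteins Gjb2 (connexin 26) and Gja1 (connexin 43) had 2.48 and 2.46. Gja1 was at 302, 159 and 421 CPM in the members of the first 3 libraries and only 31.8 CPM in 4OHT replicate 2, close to the 30.4 CPM of the other progenitors there.

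Some of these genes are also high in basal cells and others are not. Cald1 was at 895 to 1188 CPM in basal cells, about the level of the members, and Gja1 (489 to 1365 CPM) and Tpm2 (1048 to 1743 CPM) were higher there than in the members of every library. Gjb2, by contrast, was at 147 to 223 CPM in the members and at most 2.13 CPM in basal cells and 2.35 CPM in hormone-sensing cells. Anxa1 (annexin A1, a phospholipid-binding protein) was at 2057 ± 622 CPM in the members and 575 ± 138 CPM in the other progenitors. It was at 301 to 498 CPM in hormone-sensing cells and 45.7 to 69.1 CPM in basal cells. Anxa3 was at 424 ± 101 CPM against 101 ± 41.2 CPM in the other progenitors. Hormone-sensing cells had 127 to 259 CPM of Anxa3 and basal cells 102 to 160 CPM. Ptgs2 (cyclooxygenase 2, which makes prostaglandins) was at 339, 52.9, 360 and 145 CPM in the members and 30.2 to 83.3 CPM in the other progenitors. Ccl5, a chemokine, was at 378, 557, 159 and 262 CPM against 54.6 to 93.7 CPM.

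The remaining 6 of the 15 were Mirt1, Pgf (a growth factor of the VEGF family), Prelid2, Endod1, P4ha2 (a collagen prolyl hydroxylase) and Prrg4, with log2 fold changes from 2.05 to 2.36. Endod1 was at 81.7 to 232 CPM in the members and at most 6.06 CPM in basal cells. P4ha2 was at 49.5 to 115 CPM in the members and 92.3 to 183 CPM in basal cells. Pgf was at 33.6 to 211 CPM in the members and 75.6 to 163 CPM in basal cells. Mirt1, a long non-coding RNA, was at 31.2 to 52.1 CPM in the members, 6.22 to 13.2 CPM in the other progenitors and at most 4.10 CPM in basal cells.

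The 15 genes with the largest decrease by the same rule included 4 interferon-induced genes (Iigp1, Ifit3, Gbp7 and Ifi44) and the milk and progenitor genes Lalba, Hey1 and Spp1. The others were Igfbp5, Fos, Lrg1, S100g, Atp6v1b1, Nqo1, Cracr2b and the long non-coding RNA C530043A13Rik, with log2 fold changes from -4.55 for S100g to -3.09 for Nqo1. S100g, a calcium-binding protein, was at 1.93 ± 1.52 CPM in the members and 45.3 ± 19.8 CPM in the other progenitors. Atp6v1b1, a subunit of the proton pump of acid-secreting cells, was at 2.81 ± 3.04 against 52.0 ± 11.4 CPM. In the members S100g and Atp6v1b1 had 4 and 5 UMIs in all, under 3 UMIs in every library, so their fitted fold changes are imprecise. Both were at most 1.52 CPM in basal and hormone-sensing cells, so among these classes their transcripts were found mainly in the other progenitors. C530043A13Rik was at 2.61 to 10.6 CPM in the members, 62.5 to 102 CPM in the other progenitors and at most 4.28 CPM in basal cells.

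**Figure D4:**
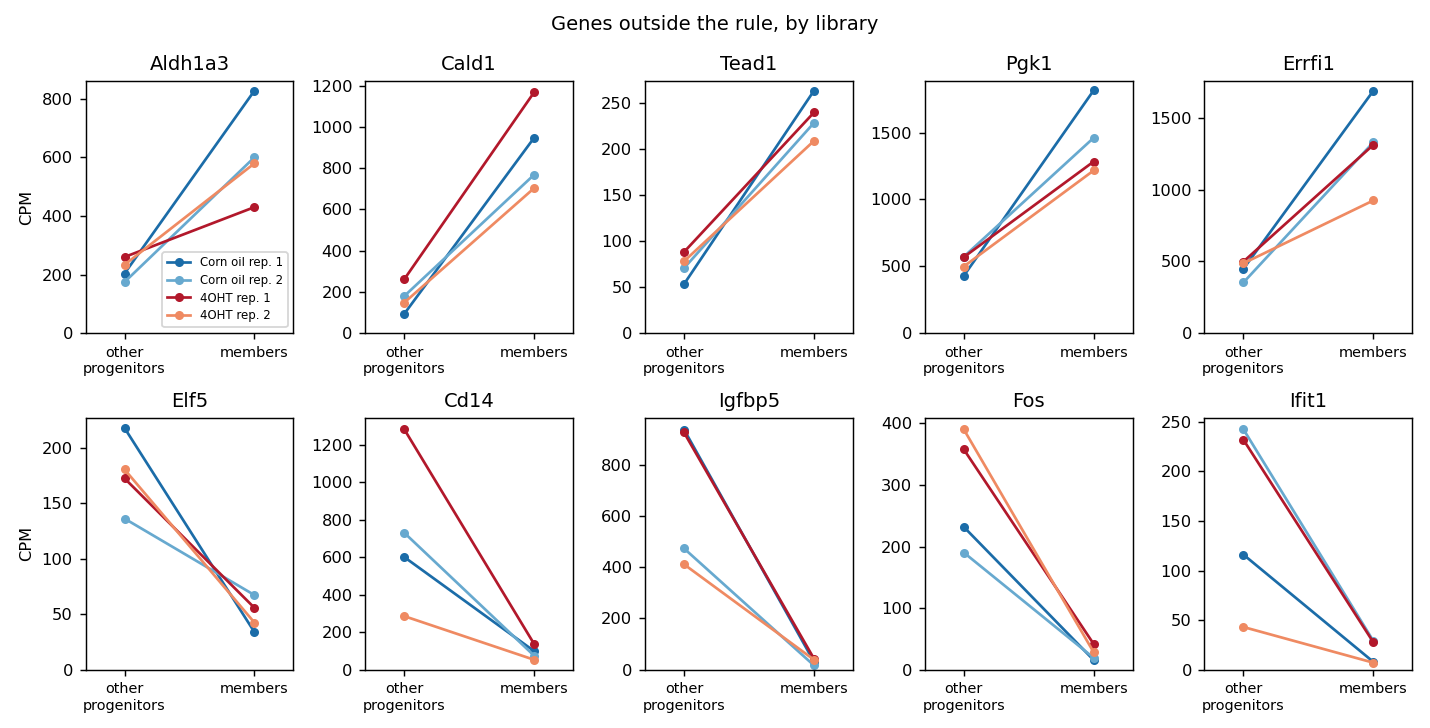
Levels in CPM of 10 genes outside the rule in the other progenitors and in the members, 1 line per library. The upper row (Aldh1a3, Cald1, Tead1, Pgk1 and Errfi1) rises in all 4 libraries and the lower row (Elf5, Cd14, Igfbp5, Fos and Ifit1) falls in all 4; the members of 4OHT replicate 1 have the lowest Aldh1a3 of the members.

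Tight junction genes other than the 2 in the score were tested as a list. Of 23 tested, 8 were higher and 1 lower, against 10.8% of all genes called higher, with a median log2 fold change of 0.27. The claudins led: Cldn4 was at 3533, 2040, 3468 and 3392 CPM in the members and 2063, 1386, 2270 and 1828 CPM in the other progenitors (log2 fold change 0.91, SE 0.11, adjusted p = 4.9e-09). Cldn4 was higher in each library, although the lowest member value lay within the range of the other progenitors. Cldn3 had a log2 fold change of 0.90 and Cldn7 of 0.80. Ocln (occludin), F11r (a junctional adhesion molecule), Pard6b (a polarity protein) and Cldn12 were also higher. Tjp3, a junction scaffold, was lower at 3.17 ± 2.23 against 11.8 ± 3.5 CPM, from only 8 UMIs in the members. Tjp1 (log2 fold change 0.45) and Epcam (0.01) did not pass. Without 4OHT replicate 1, 5 of the list were higher and none lower.

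The tubulin and microtubule list had 9 of 17 tested genes higher and 1 lower. Tubb5 was at 1102, 920, 737 and 700 CPM in the members and 408 to 468 CPM in the other progenitors, with a log2 fold change of 1.20 (SE 0.13, adjusted p = 5.4e-10). Tubb6 (1.38), the microtubule-binding Map4 (1.20) and Tuba1a (1.15) were higher too. Tppp3, a tubulin polymerization protein, was lower at 3.03 ± 2.26 against 19.7 ± 4.46 CPM, from only 9 UMIs in the members. The tubulins are a family of near copies, so which of them rose is uncertain. Without corn oil replicate 1, 5 of the 17 were higher and 1 lower, and without 4OHT replicate 2, 6 were higher and 2 lower. Of 14 further keratins, 4 were tested and 2 were higher, and 1 was higher without corn oil replicate 2 or without 4OHT replicate 1. Krt80 was at 18 ± 9.33 against 4.14 ± 1.88 CPM. Krt16 reached 38.4 CPM in corn oil replicate 2 and was listed at 0 in 2 of the libraries, and its direction turned with equal weights for the 5 genes (log2 fold change -0.09).

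Of 24 genes of clotting and fibrinolysis apart from F3, 10 were tested, 5 were higher and 1 was lower. Plaur, the receptor of urokinase, was at 78.2, 81.7, 95.8 and 92 CPM in the members and 18.1 to 35.0 CPM in the other progenitors. Its log2 fold change was 2.0 (SE 0.18, adjusted p = 5.0e-12), and the sets did not overlap. Anxa5, which binds the same phospholipids as clotting factors, was at 348 ± 78.8 against 215 ± 45.7 CPM. F7, the ligand of tissue factor, and Tfpi, its inhibitor, had too few UMIs to be tested. Of this list 3 genes were called higher without corn oil replicate 1, without corn oil replicate 2 or without 4OHT replicate 1.

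The YAP list held genes switched on by the mechanically regulated cofactor YAP with TEAD factors, together with parts of the pathway itself. It had 9 of 17 tested genes higher and none lower, and 8 of 17 higher without 4OHT replicate 1. The count is thus not one of targets alone. The median log2 fold change of the list was 0.73. Tead1, the DNA-binding partner, was at 263, 228, 240 and 209 CPM in the members and 53.1, 70.5, 88.0 and 77.9 CPM in the other progenitors (log2 fold change 1.92, SE 0.16, adjusted p = 2.0e-13). Ctgf, a matricellular protein, varied widely at 1537, 255, 956 and 145 CPM in the members and 193, 99.5, 277 and 104 CPM in the other progenitors, with a log2 fold change of 1.98. Cyr61 was at 3136 ± 970 against 1732 ± 730 CPM, and Ptpn14, Ajuba and Lats2, which act upstream of YAP, had log2 fold changes of 1.71, 1.82 and 1.39. Ankrd1 (0.40) and Axl (-0.03) did not pass. Tead1 and Ctgf are also high in basal cells, at 180 to 235 CPM and 501 to 1688 CPM.

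Among genes of the EGF family, the receptor Egfr was at 54.7, 31.2, 58.9 and 28.3 CPM in the members and 10.4 to 21.4 CPM in the other progenitors. Its ligand Hbegf was at 118 ± 26.8 against 34.6 ± 13.4 CPM. The feedback inhibitor Errfi1 was at 1694, 1334, 1316 and 927 CPM against 353 to 499 CPM, a log2 fold change of 1.75 (SE 0.14, adjusted p = 5.2e-14). These 3 were the only ones higher of 11 tested, while the pathway feedback genes Dusp6 (-1.12) and Phlda1 (-1.10) were lower, and 1 was lower without 4OHT replicate 1. Of the integrin and matrix list, 6 of 20 tested genes were higher and 1 was lower. Timp3 (a protease inhibitor, log2 fold change 1.55), Cd44 (the hyaluronan receptor, 1.06) and Itgav (0.71) were higher in 4 of 4 libraries, and Itgb5 was lower (-1.16). Without 4OHT replicate 1 that list had 2 genes higher and none lower.

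Genes of glycolysis and of the response to low oxygen were higher almost throughout, 15 of 16 tested and none lower, with a median log2 fold change of 1.35. Pgk1, a glycolytic kinase, was at 1816, 1461, 1283 and 1217 CPM in the members and 428, 571, 568 and 498 CPM in the other progenitors (log2 fold change 1.68, SE 0.13, adjusted p = 5.0e-14). Slc2a1, the glucose transporter GLUT1, was at 888 ± 270 against 322 ± 65.1 CPM. Bnip3, a mitophagy receptor, had the largest fold change of the list at 1.88 (403 ± 111 against 127 ± 38.4 CPM), and Adm (adrenomedullin) had 1.69. For Pgk1, Slc2a1, Bnip3 and Adm the members lay above the other progenitors without overlap. Car9, carbonic anhydrase 9, was at 88.6, 93.7 and 94.2 CPM in the members of the first 3 libraries but at 21.2 CPM in both sets of 4OHT replicate 2. P4ha1 (0.56) was the gene that did not pass. Without 4OHT replicate 1, 13 of 16 were called higher. Basal cells had Adm at 1408 to 2270 CPM and Car9 at 129 to 158 CPM, above every member value, Bnip3 at 384 to 450 CPM, within the members' range, and Pgk1 at 744 to 1184 CPM, below it.

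Interferon-response genes were lower in the members: 17 of 17 tested passed, against 11.3% of all genes called lower, with a median log2 fold change of -2.14. Ifit1, an antiviral RNA-binding protein, was at 7.82, 28.8, 27.5 and 7.07 CPM in the members and 116, 242, 232 and 43.0 CPM in the other progenitors (log2 fold change -2.88, SE 0.22, adjusted p = 2.7e-14). Isg15, a ubiquitin-like modifier, was at 41.7 ± 19.3 against 212 ± 108 CPM, and Irf7, a transcription factor of the response, at 16.6 ± 11.4 against 72.2 ± 28.6 CPM. Ifit3 and the interferon-induced GTPase Iigp1 had 2.70 ± 2.69 and 1.40 ± 2.30 CPM in the members, under the level of 3 UMIs in every library, so their fitted fold changes of -4.66 and -5.18 are imprecise. The other progenitors of 4OHT replicate 2 had the lowest level of Ifit1, Isg15 and Irf7. Without 4OHT replicate 1, 12 of 17 passed and all 12 were lower.

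Immediate early and heat shock genes, which respond quickly to stimuli, had 12 of 23 tested genes lower and 4 higher. Fos was at 15.6, 19.2, 41.6 and 28.3 CPM in the members and 232, 190, 358 and 390 CPM in the other progenitors (log2 fold change -3.15, SE 0.20, adjusted p = 3.7e-17). Hspa1a, an inducible chaperone, was at 383 ± 269 against 2499.9 ± 1019 CPM. Egr1 (-1.76) and Jund (-0.84) were lower too. Fosl1, a Fos-related partner of Jun, went the other way at 26.1, 33.6, 23.6 and 60.1 CPM against 13.2 to 22 CPM (log2 fold change 1.05, SE 0.25), and Ier3 (0.93) and Maff (0.74) were also higher. After thinning to 2000 UMIs, 4.52% of members and 19.4% of other progenitors had a Fos transcript. The 44.1% of endothelial cells with one is no measure of free RNA here, since these cells use Fos themselves.

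Of 24 transcription factors of the luminal lineage tested, 9 were lower and 3 higher, against 11.3% lower and 10.8% higher over all genes. The 3 higher are thus near the general share. Gata3, a luminal factor, was at 44.3 ± 15.6 against 118 ± 16.4 CPM (log2 fold change -1.14), and Cebpb (-0.85), Cebpd (-1.04), Runx1 (-0.87) and Id2 (-1.25) were lower. Klf5 was at 369 ± 102 against 249 ± 24.1 CPM and Ovol1 at 28.1 ± 13.7 against 13.9 ± 4.37 CPM. Sox9 (0.24), Tfap2a (0.30) and Grhl2 (-0.14) did not pass. Of 7 Notch genes tested, the target Hes1 was lower (-1.22) and the DNA-binding factor Rbpj higher (1.00), which is near the general shares in both directions.

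Genes of mucosal defence were split, 6 of 18 tested higher and 6 lower. Wfdc2, a protease inhibitor of secretions, was at 162 ± 57.3 against 66.1 ± 19.0 CPM. Lrg1 was at 9.06 ± 7.52 against 116 ± 17.2 CPM and Chil1, a chitinase-like protein, at 129 ± 61.3 against 380 ± 208 CPM. Lcn2, the iron-binding lipocalin 2, was high in both sets, at 5929 ± 1862 against 5402 ± 1047 CPM.

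**Figure D5:**
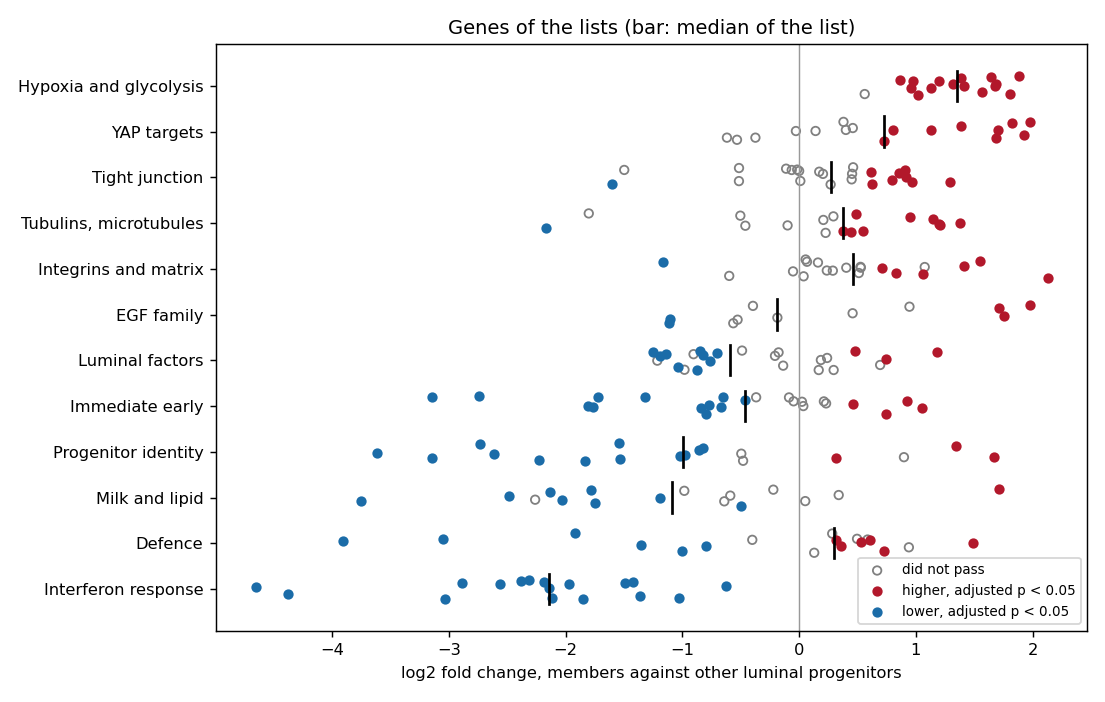
Log2 fold change between members and other luminal progenitors for each tested gene of 12 gene lists, with filled points for genes that passed an adjusted p under 0.05 and a bar at each list's median. Hypoxia and glycolysis genes lie to the right of 0 and interferon-response genes to the left, with medians of 1.35 and -2.14; the other lists hold genes on both sides.

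Markers of other cell types were measured in the same sums. Over all genes 10.8% were called higher and 11.3% lower. With so few markers tested, the counts here are not read as results about the lists. Of 15 further basal markers, 11 were tested, 2 were higher (Tagln and Lgals7) and 1 was lower (Apoe). Of this list, 1 was higher without 4OHT replicate 1, 2 were lower without corn oil replicate 2, and DESeq2 called none higher. In the other direction, 3 were higher without corn oil replicate 1 and 3 with the stricter cell filter described below. The median log2 fold change of the list was -0.46 in the main fit and 0.43 with that filter. Their summed level was 251 to 726 CPM in the members and 462 to 593 CPM in the other progenitors, against 7713 to 11625 CPM in basal cells. The defining basal keratins Krt5 and Krt14 were at 5.78 and 77.2 CPM in the members and at 8.31 and 84.3 CPM in the other progenitors. The basal gate genes Krt17 and Acta2 were at 223 and 87.7 CPM in the members and at 80.3 and 75.2 CPM in the other progenitors. The rule keeps the sum of these gate genes low in every progenitor, so their levels are no evidence on basal identity. Tagln, an actin-binding protein, was at 422, 156 and 524 CPM in the members of the first 3 libraries and at 35.4 CPM in 4OHT replicate 2, below the 80.7 CPM of the other progenitors there. The sum of 15 hormone-sensing markers was 240 to 396 CPM in the members, 224 to 306 CPM in the other progenitors and 1712 to 2986 CPM in hormone-sensing cells. In that list 8 were tested, Ptges was higher and Prlr and Cldn10 lower. No gene of that list was called lower without corn oil replicate 1, without 4OHT replicate 1, without 4OHT replicate 2 or by DESeq2.

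The endothelial list summed to 5.21 to 42.4 CPM in the members, below the other progenitors of the same library in 4 of 4. The fibroblast list summed to at most 13.4 CPM and the leukocyte list to at most 12 CPM, with all 12 leukocyte markers at 0 in the members of corn oil replicate 1 and 4OHT replicate 2. The median UMIs per cell were 5912, 5328, 5066 and 3432 in the members and 5535, 4916, 4579 and 3616 in the other progenitors. The median share of mitochondrial UMIs was 1.19 to 1.51% in the members and 1.19 to 1.43% in the other progenitors. Likely doublets, taken as the cells with the highest Scrublet scores, were 8 of the 438 members (0, 3, 5 and 0 by library). The part of depth in the differences was not tested beyond the thinned values.

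The score was not particular to cells that passed the milk gene part of the gate. Of 1240 luminal cells with under 3 UMIs both of the hormone-sensing genes and of Wfdc18, Csn3 and Ltf, 259 (20.9%) reached the lowest member score, and 170 of these were in 4OHT replicate 1. Of 1168 hormone-sensing cells 5.31% reached it, and of 7028 basal cells 0.0711%. When all luminal cells outside the hormone-sensing gate were ranked together, an alternative added after the data were seen, the top 10% made up 6.19%, 6.09%, 18% and 6.47% of the cells in the library order above.

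Whether treatment changed the members was tested on the members' summed counts, which held 282741 to 1273274 UMIs per library. None of 2998 genes passed in the edgeR quasi-likelihood test (0.0%), with 51 at an unadjusted p under 0.05, and DESeq2 called none. Without corn oil replicate 1, 7 genes passed, without corn oil replicate 2, 2 passed, and with no filter on low counts 18 passed. The smallest p values belonged to genes that did not pass (adjusted p = 0.999). Cxcl1, a chemokine, was at 80.8 and 115 CPM with corn oil and 298 and 279 CPM with 4OHT in the members. It was at 133, 116, 288 and 250 CPM in the other progenitors, so both sets were higher in the 4OHT-labelled libraries, and neither passed. Klf6, an early-response factor, was at 360, 368, 774 and 753 CPM in the members, and Hist1h2bc, a histone gene, at 172, 228, 69.9 and 46.0 CPM. Aldh1a3 and Elf5 did not pass, with log2 fold changes of -0.40 (SE 0.32) and 0.12 (SE 0.41).

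The difference of the treatment effect between members and other progenitors was tested as an interaction term, blocked by library, and 13 of 9120 genes passed (0.143%), 7 higher (0.0768%) and 6 lower (0.0658%). Most of these rest on a few cells of 1 library. Cx3cr1, a chemokine receptor of leukocytes, had 63 UMIs in 4 member cells of corn oil replicate 1 and none in the members of the other 3 libraries. Saa1, Saa2 and Saa3, acute phase proteins, had 23, 24 and 27 UMIs in 2 member cells of 4OHT replicate 2. Of 187 UMIs of the casein gene Csn1s2a in the members of corn oil replicate 2, 153 were in 1 cell.

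Spp1 rested on more cells, with 22, 23, 49 and 24 members holding a transcript. Its level in the members was 211, 353, 262 and 1029 CPM and in the other progenitors 5558, 3978, 3153 and 3509 CPM. The interaction had a log2 value of 1.42 (SE 0.29, adjusted p = 0.00171). Of the 291 Spp1 UMIs in the members of 4OHT replicate 2, 157 were in 1 cell, and without that library the value was 0.67 and did not pass. Gm13889 was at 31.3 and 16.8 CPM in the members with corn oil and 45.6 and 156 CPM with 4OHT, and at 124, 75.3, 49.2 and 100.1 CPM in the other progenitors (log2 value 2.33, SE 0.44, adjusted p = 0.000239). Tfap2c did not differ detectably in its treatment effect between the sets (log2 value -0.53, SE 0.43). DESeq2 called 1 gene in this comparison, Wfdc17, a small secreted protein, at 5.21 and 50.5 CPM in the members with corn oil and 106 and 149 CPM with 4OHT. Wfdc17 was at 20.4, 216, 41.2 and 47.8 CPM in the other progenitors, and in the members of 4OHT replicates 1 and 2 it came from 9 and 4 cells.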

How the data were processed

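Droplet 3′ RNA libraries of 4 mice were analysed, 2 per treatment, each taken as 1 replicate. The deposited values are UMI counts per gene and cell, made by the authors with Cell Ranger 3.0.1 against mm10, per the labels' design text and the submitters' processing notes. Cell calling and strand settings are not given in the sources used here. The members, gene lists and tests were chosen with earlier results of these data known.

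Counts were summed per library and set. CPM is a gene's count scaled to 1000000 of such a sum. The edgeR 4.0.16 quasi-likelihood test (R 4.3.3, TMM factors, filterByExpr) was run on the counts of all genes outside the 18 rule genes, with p adjusted by Benjamini-Hochberg and called under 0.05. Fold changes use TMM factors and CPM does not. Library was a block for members against other progenitors and for the interaction. The genes named are the 15 largest changes in each direction among those past the threshold, at 20 CPM or more and with the same sign in 4 of 4 libraries. Added to these are Tfap2c, Elf5, Kit, Cd14, Aldh1a3, genes of the lists, and the 3 smallest p where none passed. The members of a list are described by counts, without a set test. DESeq2 1.42.0, no filter, other scalings, other shares of cells, thinning, 50% of the UMIs and leaving out each library were alternatives.

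Scrublet (scanpy 1.11.5) marked between 0.0369% and 0.150% of cells with its automatic threshold, which was taken as a failure, so no cell was removed. An alternative left out the highest scores at 0.8% per 1000 cells, together with cells under 500 genes or over 10% mitochondrial UMIs. On simulated counts with 200 genes changed by a log2 of 2, shares recovered are of the changed genes that passed the filter. They were 90.6% of 191 for members against others (8088 genes, 5 false calls), 73.6% of 182 for treatment in the members (2789 genes, 6 false) and 42.8% of 194 for the interaction (8872 genes, 2 false). The simulation drew summed counts around a common profile, without library effects or UMIs concentrated in single cells. Its false calls therefore give no rate for the interaction genes called above. Promoter windows were cut to the 250 bases before the start site. GENCODE M21 was used only to place genes.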

Additional observations from a re-analysis of the deposited data

Results flagged for a closer look

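In 13 genes the difference between 4OHT-labelled and corn oil-labelled libraries was not the same in the members as in the other progenitors, by the edgeR interaction test with adjusted p-values. The cause was not tested for any of them. For Wfdc17 the adjusted p was 1.45e-12, with 200 UMIs in the members, 135 of them in 9 cells of 4OHT replicate 1. For Cx3cr1 (9.19e-09) every member UMI was in 4 cells of corn oil replicate 1. For Saa1 (4.84e-07), Saa2 (0.000525) and Saa3 (0.00142) the member UMIs of the 4OHT-labelled group were in 2 cells of replicate 2. For Gm13889 (0.000239) the members held 12, 7, 58 and 44 UMIs in corn oil replicates 1 and 2 and 4OHT replicates 1 and 2. For Spp1 (0.00171) 157 of 291 UMIs of 4OHT replicate 2 were in 1 member. For Csn1s2a (0.0035), Csn2 (0.00452), AW112010 (0.00452) and Hp (0.0084) corn oil replicate 2 had the highest level of the members' libraries, from 10, 9, 3 and 3 cells. For Ly6a, a surface protein of immature cells, the adjusted p was 0.0178, with 216, 315, 105 and 24.8 CPM in the members and 579, 228, 369 and 164 CPM in the other progenitors. For Tnfaip2 it was 0.0431, with 5.21, 14.4, 36.9 and 42.4 CPM in the members.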

How the results depend on the processing

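Members against other progenitors gave 886 genes higher and 928 lower. With the top 5% of cells 554 were higher and with the top 20% 1397. DESeq2 gave 521 lower. Thinning to 2000 UMIs gave 487 higher and 559 lower, choosing in 50% of the UMIs 465 and 559, and no library block 526 and 559. Leaving out 1 library at a time gave 423 to 838 higher and 406 to 932 lower, the lowest without 4OHT replicate 1, which held the most members. Of the alternatives for single named genes in this comparison, 1447 kept direction and side of the threshold, 65 no longer passed, 1 newly passed and 2 turned, both Krt16 (log2 fold change -0.091 with equal weights and -0.52 without the milk gene part of the gate, the latter added after seeing the data). Treatment in the members gave 0 genes, 18 with no filter, 1 with equal weights, and 0 to 7 without 1 library (7 without corn oil replicate 1, 2 without corn oil replicate 2). With the replicate number as a block it gave 26. The libraries numbered 1 deviated together only weakly (r = 0.37 over 3013 genes), and with 2 pairs the number is not shown to pair the mice. The interaction gave 13 genes, 1 with DESeq2, 2 at 20 CPM or more, 1 with the top 20%, 1 with the top 10% within each library, 5 after thinning, and 5 to 27 without 1 library (5 without 4OHT replicate 2, 7 without corn oil replicate 2, 27 without 4OHT replicate 1). Of its single-gene alternatives 85 kept the call, 95 lost it and 10 turned. The turned log2 values were AW112010 at 4.7 without corn oil replicate 2, 0.14 with equal weights and 0.41 with the stricter cell filter, and Csn1s2a at 3.2 without corn oil replicate 2, 0.44 with the top 5% and 1.53 with equal weights. Csn2 turned to 7.99 without corn oil replicate 2 and 0.16 with the top 5%, Hp to 0.11 without 4OHT replicate 1 and Saa3 to -2.41 without 4OHT replicate 2. Leaving out 1 library at a time, these genes ranged from -4.37 to 4.7 (AW112010), -4.88 to 3.2 (Csn1s2a), -9.81 to 7.99 (Csn2), -3.85 to 0.11 (Hp) and -2.41 to 10.64 (Saa3). The share of members differed by 5.19 percentage points between treatments, and by -1.08 to 11.45 without 1 library, the lowest without 4OHT replicate 1. The cause of these changes was not tested. Depth limits genes under about 20 CPM, since 3 UMIs in the members of 4OHT replicate 2 equal 10.6 CPM.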
